A study of Homo sapiens with 24 samples.

Results

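The genes described here are 38 nuclear genes for protein subunits of oxidative phosphorylation, taken by Ensembl identifier from the 20426 genes that all 24 count tables list. They comprise 14 genes of complex I, 7 of complex III, 9 of complex IV and 8 of ATP synthase (complex V). The electron transport chain proper ends at complex IV, so the 8 ATP synthase genes extend the group beyond the chain in the strict sense. NDUFA4 is listed with complex I by its name, although RefSeq now calls it COXFA4 and the protein is known as a subunit of complex IV. The study profiled ribosomes in human colon lines to ask how mRNA translation in 3 colon cancer lines (HCT116, HCT15 and SW620) compares with 841CON, a line that the labels give as normal colon epithelium. A second comparison set HCT15 cells overexpressing COPS7B, a subunit of the COP9 signalosome, against HCT15 cells carrying the PLVX vector. Each of these 6 lines had 2 libraries of INPUT RNA and 2 of ribosome-protected fragments (RPF, called footprints below), which makes 12 groups of 2. All cells received cycloheximide at 100 µg/mL for 10 minutes, and all parental lines and the vector line are labelled wild type. HCT15 grew in DMEM, HCT116 in RPMI-1640, 841CON in EMEM and SW620 in L15 in an air incubator, so line and medium cannot be told apart. No clone, passage or age is given for any line, and the epithelial label was not tested against marker genes, nor was the level of COPS7B analysed here.

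The respiratory chain passes electrons from NADH to oxygen through complexes in the inner mitochondrial membrane and pumps protons as it does so, and ATP synthase uses the proton gradient to make ATP. Complex I takes electrons from NADH, complex III hands them from ubiquinol to cytochrome c, and complex IV reduces oxygen. A few subunits are made inside mitochondria, while the genes described here are transcribed in the nucleus, translated on cytosolic ribosomes and imported. Colon cancer cells are known for strong glycolysis, yet keep a working respiratory chain. Promoters of these genes are known for sites of NRF1, of ETS factors such as GABP, and of YY1.

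RefSeq promoter windows (GRCh38.p14, 250 bases before to 50 bases after a gene's start) were at hand for 31 of the 38 genes, in 35 windows, since some genes have more than 1 start. The table held no entry for the other 7, among them UQCRB, ATP5F1B, COX6C, CYC1, ATP5F1D and NDUFB9. On both strands, the ETS motif CCGGAAG was found in 12 of the 35 windows (34.3%), against 10.3% of all 35116 windows of that length. The NRF1 core GCGCATGC was found in 4 windows (11.4%, against 3.05% of all) and the YY1 motif AAGATGGCG in 4 (11.4%, against 1.75% of all). Among the 22199 windows of protein-coding genes the shares were higher, at 12.8% for ETS, 3.74% for NRF1 and 2.41% for YY1. At least 1 of the 3 motifs was present in 17 windows (48.6%, against 14% of all), and none of the matches overlapped a match of another motif. A match is a string of letters and not a measured site, and no binding was measured here. The 250 bases before the start are printed below for NDUFS3, whose RNA level was above 841CON in each cancer line, for NDUFS7, whose translation differed among the cancer lines with the smallest adjusted p, and for COX5B and COX6A1, the windows that hold both the NRF1 core and the ETS motif. All 4 genes lie on the plus strand, and capitals mark the motifs in either orientation. The last capitals of COX5B belong to an ETS match that runs past the start, and the YY1 match of NDUFS7 lies after its start and is not shown.
NDUFS3, chr11:47578824-47579073: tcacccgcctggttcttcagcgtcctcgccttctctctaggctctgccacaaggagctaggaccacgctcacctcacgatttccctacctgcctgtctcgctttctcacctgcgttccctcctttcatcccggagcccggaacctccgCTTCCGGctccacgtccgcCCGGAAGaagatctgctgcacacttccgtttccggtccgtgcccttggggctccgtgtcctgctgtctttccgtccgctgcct
NDUFS7, chr19:1383657-1383906: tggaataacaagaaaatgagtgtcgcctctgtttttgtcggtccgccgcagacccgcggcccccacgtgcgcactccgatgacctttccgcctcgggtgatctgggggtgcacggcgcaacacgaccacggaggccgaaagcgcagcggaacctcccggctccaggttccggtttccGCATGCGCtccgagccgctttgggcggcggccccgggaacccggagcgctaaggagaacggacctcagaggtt
COX5B, chr2:97645812-97646061: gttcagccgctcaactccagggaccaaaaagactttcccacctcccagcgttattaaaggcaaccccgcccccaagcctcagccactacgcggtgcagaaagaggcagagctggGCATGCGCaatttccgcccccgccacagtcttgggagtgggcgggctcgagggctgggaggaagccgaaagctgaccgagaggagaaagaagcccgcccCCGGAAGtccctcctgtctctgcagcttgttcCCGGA
COX6A1, chr12:120437863-120438112: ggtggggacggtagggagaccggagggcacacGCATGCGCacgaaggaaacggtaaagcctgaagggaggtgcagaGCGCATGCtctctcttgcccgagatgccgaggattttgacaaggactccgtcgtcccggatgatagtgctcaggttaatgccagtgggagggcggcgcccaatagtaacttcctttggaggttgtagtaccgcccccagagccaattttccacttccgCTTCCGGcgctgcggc
In NDUFS3 the ETS letters start at bases -102 (minus strand) and -83 (plus strand) from the gene's start. The NRF1 core starts at base -73 in NDUFS7, at -136 in COX5B and at -218 and -174 in COX6A1.

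Depth limited the footprints of SW620 most. INPUT libraries held 1237231 to 9105954 counts in genes and RPF libraries 84262 to 4679279, of which SW620 had 98043 and 84262. The median of the 38 genes was 10.5 and 7.5 counts in the SW620 RPF libraries, against 260.5 as the median over all RPF libraries. Replicates were of 2 kinds. Both HCT116 pairs and the RPF pairs of 841CON and COPS7B came close to sampling noise, with a mean chi-square of 1.395 to 1.70 per gene where noise alone gives about 1. The other 8 pairs gave 4.12 to 63.8. The widest was 841CON INPUT, the reference of every RNA and TE comparison with 841CON, where the 38 genes differed between replicates by a median of 1.72-fold and by up to 9.18-fold. The labels do not say that replicates were separate cultures. Each p-value thus reflects only how far the 2 libraries of a group lie apart, possibly for technical reasons, and intervals cover counting error only. In the main fit that spread was estimated from all 12 groups together, close pairs included. A wide pair such as 841CON INPUT was not judged by its own spread, so p-values against it may be too small. Results that moved when each close pair was summed into 1 library are given beside the counts they move. Summing leaves those groups with 1 library, and calls over all genes fell too wherever those of the group fell. Counts from such fits, or with 1 library left out, thus do not set the group apart from other genes.

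Together the 38 genes took a larger share of footprints than of INPUT RNA in 841CON, HCT116, HCT15 and the vector and COPS7B lines. Their share of INPUT counts was 0.316% and 0.417% in 841CON, 0.778% and 0.765% in HCT116, 0.557% and 0.560% in HCT15 and 0.455% and 0.599% in SW620. Of footprint counts they held 0.745% and 0.745% in 841CON, 1.12% and 1.11% in HCT116, 1.34% and 1.24% in HCT15, and 0.466% and 0.419% in SW620. HCT15 had the highest footprint shares, and both SW620 footprint libraries lay below every other RPF library, beyond their binomial counting intervals. Translational efficiency (TE), here the mean footprint level over the mean INPUT level of a gene, had a median log2 value over 37 of the genes of 1.46 in HCT15, 1.17 in 841CON, 0.17 in HCT116 and -0.49 in SW620. The median over all genes was -0.11, -0.35, -0.83 and -0.49, so in SW620 the median of the 37 genes was that of all genes.

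**Figure D1:**
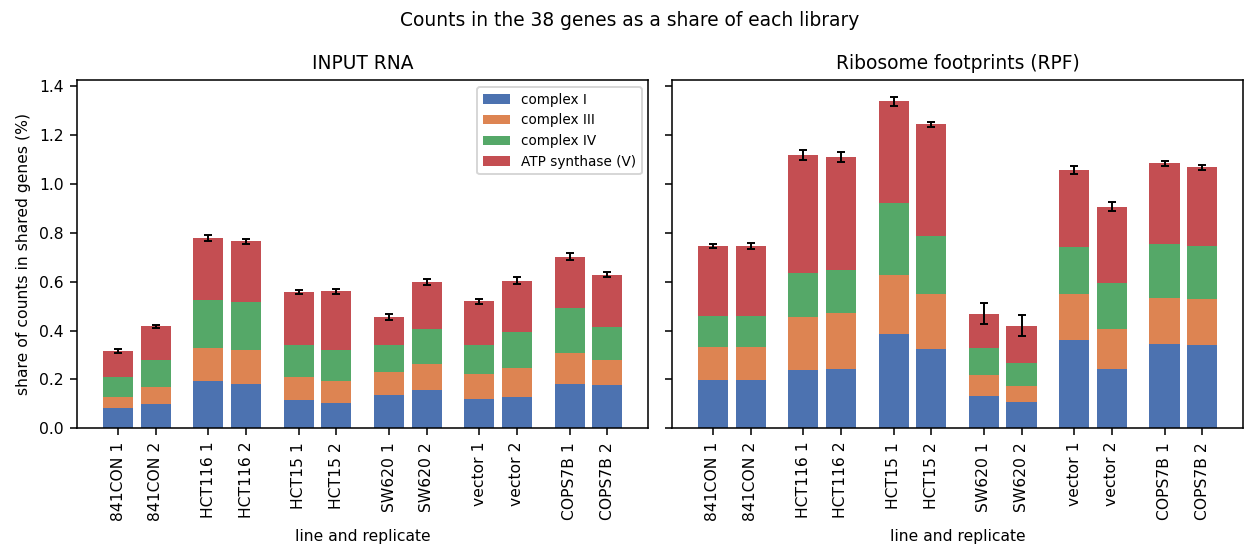
Counts in the 38 genes as a percentage of all counts in the 20426 shared genes, for each INPUT library (left) and RPF library (right), stacked by complex, with 95% binomial intervals (Wilson) of the total. The SW620 footprint shares of 0.466% and 0.419% are the lowest on the right, and the HCT15 shares of 1.34% and 1.24% the highest.

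Among the 4 parental lines, 23 of the 38 genes had their highest mean footprint level in HCT15, 9 in HCT116, 5 in 841CON and 1 in SW620. The lowest mean footprint level was in SW620 for 28 genes and in HCT116 for 8. INPUT levels gave another order, with 23 genes highest in HCT116 and 11 in SW620, and the lowest level spread over 841CON (13 genes), HCT15 (12) and SW620 (10). The order of the lines was not counted over all genes. These counts therefore do not show whether the group differs from other genes. Levels here are counts per 1000000 (CPM) of each library's total in the shared genes after trimmed-mean scaling of that total. The shares above were not scaled in this way. Levels are compared only within a gene, since gene lengths were not used. Below, rankings of lines for a gene are among the 4 parental lines unless the vector or COPS7B line is named. The map of genes by library shows what the medians hide. In the HCT116 footprint libraries NDUFA2, NDUFA4, UQCRC2, COX6B1 and ATP5PO lay far below 841CON while most other genes of the same complexes did not.

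**Figure D2:**
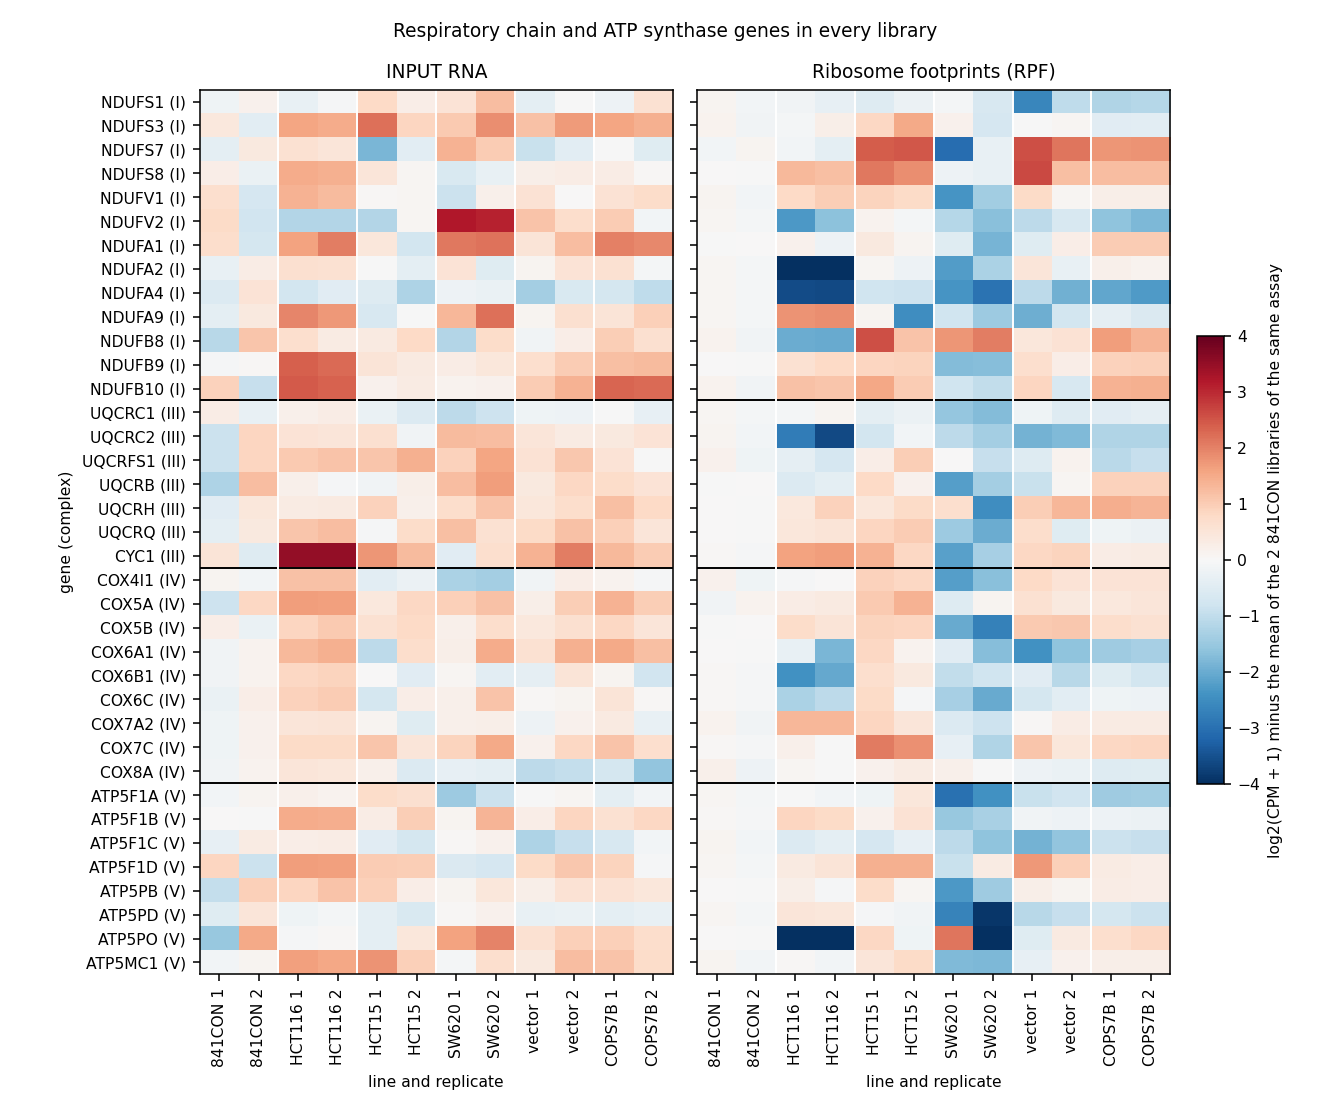
Level of 37 of the genes in each library, as log2(CPM + 1) minus the mean of the 2 841CON libraries of the same assay, with colours ending at -4 and 4; horizontal lines part the complexes. Most footprint cells of SW620 are blue, those of HCT15 mostly red, and NDUFA2 and ATP5PO reach the end of the scale in both HCT116 footprint libraries.

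In HCT116, RNA of the group was higher than in 841CON, with 15 of 38 genes called higher and 0 lower by edgeR's quasi-likelihood test at a Benjamini-Hochberg adjusted p under 0.05. Over all 11938 genes tested, 19% were called higher and 21% lower. The median log2 change was 0.79 over the 38 genes and -0.04 over all genes. By complex the counts were 7 of 14 genes in complex I, 2 of 7 in complex III, 3 of 9 in complex IV and 3 of 8 in ATP synthase. CYC1, NDUFB9, NDUFB10 and NDUFA9 had the largest changes. Among 1163 other genes of like abundance (mean level between the quartiles of the 38), a group chosen after seeing the data, 23.2% were called higher and the median was 0.17. Of the 38 genes, 33 were called in at least 1 of the 9 comparisons with 841CON, and NDUFS1, UQCRFS1, UQCRB, UQCRH and COX8A in none. How many of all genes were called in at least 1 of the 9 was not counted, so 33 has no background to be read against. With close pairs summed 8 of the 38 genes were called, and 6 in a fit of the compared libraries alone. Without replicate 1 of 841CON INPUT 13 genes were higher and 2 lower, and without its replicate 2 14 were higher and 1 lower.

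Footprints in HCT116 went both ways. Of the 38 genes, 6 were called higher and 8 lower, against 22.6% and 36.7% of all genes, and the median log2 change was 0.03, against -0.25 over all genes. NDUFA9, CYC1, COX7A2 and NDUFS8 rose most, and ATP5PO, NDUFA2, NDUFA4 and UQCRC2 fell most. None of the 4 rises kept its call with close pairs summed. The NDUFA9 call was also lost when any 1 of the 4 libraries compared was left out, with fitted changes of 1.79 to 1.93. TE was lower for 12 of 37 genes tested (32.4%) and higher for 0, against 30.6% lower and 15.1% higher over all genes. The share of lower TE is thus near that of all genes, and so is the median of -0.75, against -0.59. Among genes of like abundance 19.7% had lower TE, with a median of -0.19. With close pairs summed 5 genes were called for footprints, all lower, and 4 for TE. In a fit of the compared libraries alone 13 were called higher and 13 lower for footprints. That fit called 8414 of all 9563 genes it tested, so most genes passed there. Without trimmed-mean scaling the footprint calls were 11 higher and 6 lower. The footprint count was 8 without replicate 1 of 841CON RPF and 9 without either replicate of HCT116 RPF.

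In HCT15, footprints were higher for 13 of 38 genes and lower for 0, while RNA was higher for 3 and lower for 0. Over all genes 28.9% were called higher and 21.1% lower for footprints, and 16.7% higher and 18.7% lower for RNA. The median log2 change of footprints was 0.53, against 0.27 over all genes, and that of RNA 0.04, against -0.02. Complex I gave 6 of the 13 genes, complex III 2, complex IV 4 and ATP synthase 1, with NDUFS7, NDUFB8, NDUFS8 and COX7C changed most. The share of 34.2% is near the 31.0% found among other genes of like abundance. TE rose for 3 of 37 genes, NDUFS7, NDUFS8 and COX4I1, and fell for 0, against 11.6% and 5.08% of all genes. The footprint count was 4 without either replicate of 841CON RPF and 3 with close pairs summed. DESeq2, with its own size factors, called 8 genes higher and 3 lower for footprints, 5 and 3 for RNA, and 3 and 1 for TE. Of all genes called for TE, 69.6% were higher by edgeR and 54.6% by DESeq2, and without trimmed-mean scaling the higher share of RNA calls moved from 47.3% to 61.6% over all genes and the RNA calls of the group to 10 higher and 0 lower. In a fit of the compared libraries alone there were 0 calls for RNA and 0 for TE. No gene of any kind passed there, out of 11210 tested for RNA and 8517 for TE. The RNA count was 11 (6 higher, 5 lower) without replicate 1 of 841CON INPUT, 6 without its replicate 2 and 5 without replicate 2 of HCT15 INPUT. The TE count was 6 without replicate 2 of 841CON INPUT, 1 without either replicate of 841CON RPF and 0 with close pairs summed. Libraries of other groups, which enter the same fit, moved these counts too. Without any 1 of the 4 HCT116 libraries the RNA count was 6 and the TE count 1, and the RNA count was 7 without replicate 1 of SW620 INPUT and 6 without either vector INPUT library.

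In SW620, footprints were lower for 17 of 38 genes and higher for 0, against 18.9% lower and 18.9% higher over all genes. The median log2 change was -1.26, against -0.09 over all genes. ATP synthase gave 6 of its 8 genes, complex I 5 of 14, complex III 3 of 7 and complex IV 3 of 9. Among genes of like abundance 37.4% were called lower, with a median of -0.81; lower calls were thus also common among those other genes. TE was lower for 16 of 37 genes and higher for 0, against 9.7% and 8.38% of all genes, with a median of -1.78 against -0.28. In genes of like abundance the TE share was 17.6% and the median -0.54. RNA did not share that direction, with 6 genes higher and 3 lower, against 21.9% and 22.5%, and a median of 0.36 against 0.03. Whether the depth of the SW620 footprint libraries has a part in the lower footprints was not tested.

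In a fit of the compared libraries alone SW620 had 0 calls for TE and 0 for RNA. Over all genes that fit called 288 of 7284 for TE and 2747 of 10767 for RNA. Single libraries also moved the SW620 counts. Footprint calls numbered 11 without replicate 1 of SW620 RPF. TE calls numbered 9 without replicate 1 of 841CON RPF, 8 without replicate 2 of SW620 INPUT, 9 without replicate 2 of SW620 RPF and 3 with close pairs summed. RNA calls numbered 17 (13 higher, 4 lower) without replicate 2 of 841CON INPUT, 6 without replicate 1 of SW620 INPUT and 5 (2 higher, 3 lower) without its replicate 2. Without trimmed-mean scaling 13 genes were higher and 3 lower for RNA. Without trimmed-mean scaling the median footprint change over all genes moved from -0.09 to 0.07 and that of the 38 genes from -1.26 to -0.70, with 9 genes lower and 0 higher. The higher share of all calls moved with it, from 50% to 65.7% for footprints and from 46.4% to 63.1% for TE.

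**Figure D3:**
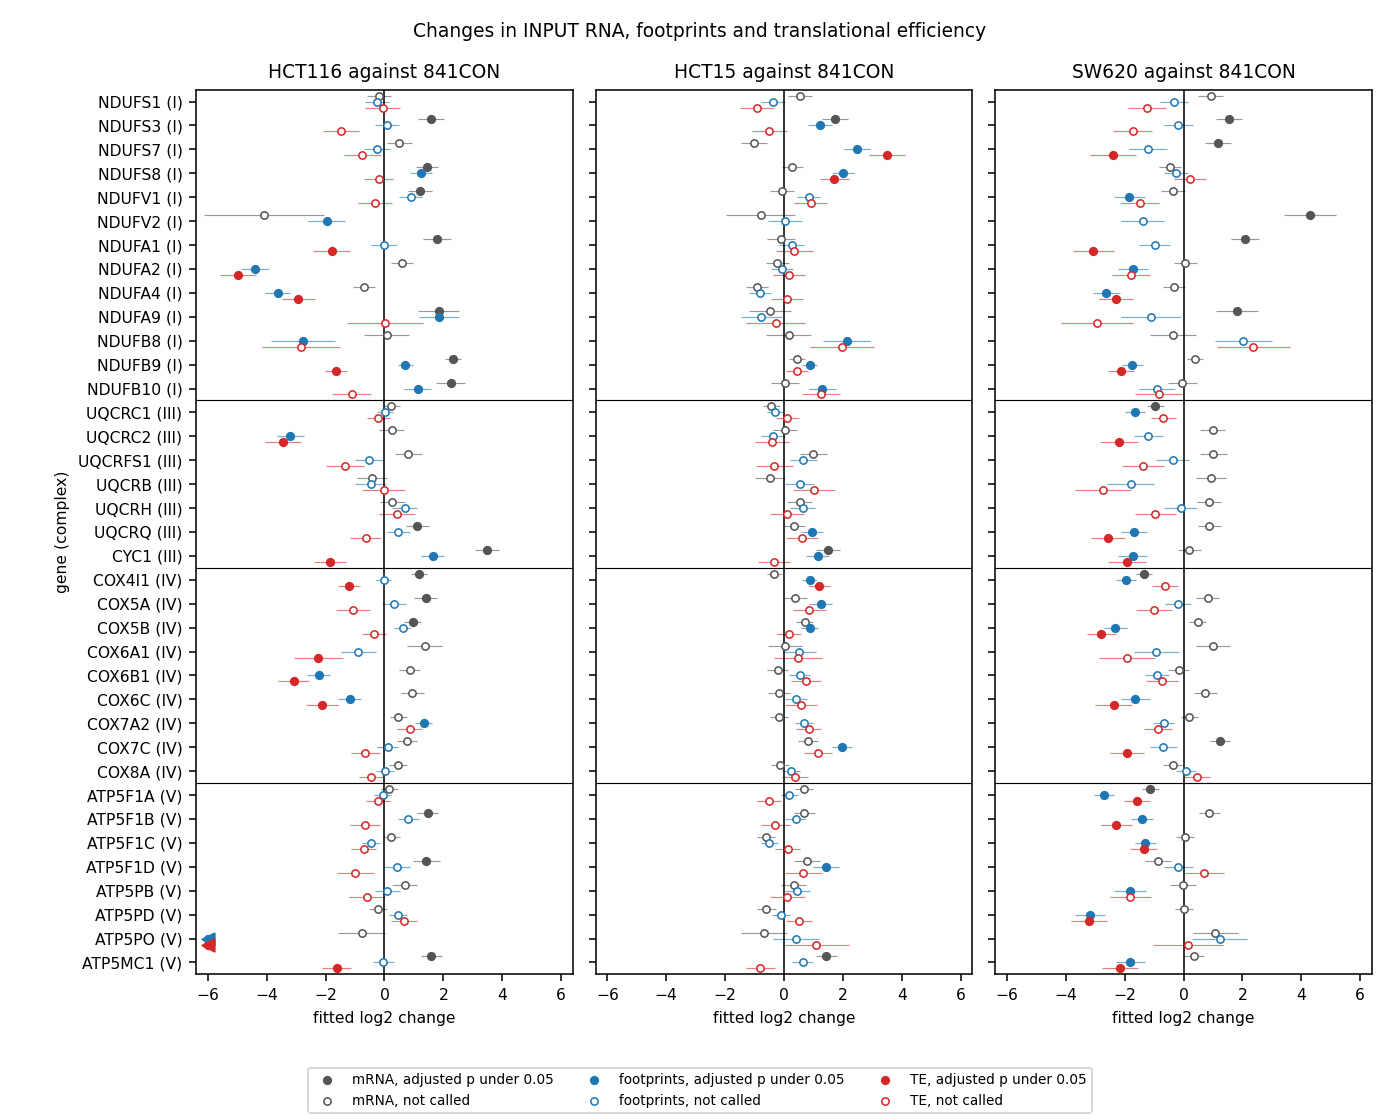
Fitted log2 change of 37 of the genes against 841CON in INPUT RNA (grey), footprints (blue) and TE (red) in HCT116, HCT15 and SW620; bars are 1 SE, filled points have an adjusted p under 0.05, and triangles mark ATP5PO in HCT116, whose fitted values lie beyond the axis. Filled red points lie left of 0 for 12 genes in HCT116 and 15 in SW620 and right of 0 for 3 in HCT15.

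Complex I. The catalytic core is described here by its flavin subunit NDUFV1, the iron-sulfur subunits NDUFS1, NDUFV2, NDUFS7 and NDUFS8, and by NDUFS3 of the quinone-reducing part. NDUFS1 (ENSG00000023228), the largest core subunit, was called in none of the comparisons with 841CON. Its INPUT levels were 83.9 and 106 CPM in 841CON, 76.02 and 91.5 in HCT116, 165 and 115 in HCT15 and 137 and 223 in SW620, and its footprint levels 176 and 152 CPM in 841CON, 147 and 130.1 in HCT116, 114 and 139.8 in HCT15 and 155 and 106 in SW620. All footprint values lay between 106 and 176 CPM. NDUFV1 (ENSG00000167792), which binds NADH and the flavin, had INPUT levels of 191 and 73.4 CPM in 841CON, 313 and 288 in HCT116, 123 and 124 in HCT15 and 64.6 and 138 in SW620. HCT116 was above all the others, with a log2 change of 1.204 (SE 0.41, adjusted p = 0.0241). NDUFV1 footprints were 243 and 207 CPM in 841CON, 387 and 444 in HCT116, 419 and 382 in HCT15 and 43.05 and 84.5 in SW620. The SW620 values were the lowest, at -1.85 (SE 0.53, adjusted p = 0.00997).

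NDUFS7 (ENSG00000115286), which carries the last iron-sulfur cluster before the quinone, had the most opposed values of the core. INPUT levels were 131 and 222 CPM in 841CON, 263 and 239.9 in HCT116, 47.7 and 128 in HCT15 and 454 and 349 in SW620. Footprint levels were 72.4 and 84.97 CPM in 841CON, 73.2 and 59.2 in HCT116, 426 and 445 in HCT15 and 8.61 and 63.4 in SW620. Footprints in HCT15 thus stood above those of every other parental line while its INPUT levels were below those of SW620 and HCT116. Its footprint change in HCT15 was 2.47 (SE 0.45, adjusted p = 0.000193) and its TE change 3.497 (SE 0.62, adjusted p = 0.00119), with adjusted p = 0.0648 for TE when close pairs were summed. In SW620 RNA was higher by 1.18 (SE 0.43, adjusted p = 0.032) and TE changed by -2.39 (SE 0.78, adjusted p = 0.0386), on 1 and 6 footprint counts. The vector and COPS7B lines, which derive from HCT15, also had high footprint levels of 476 and 351 CPM in the vector line and 271 and 273 in the COPS7B line.

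NDUFS8 (ENSG00000110717), another iron-sulfur subunit, had footprint levels of 209 and 206 CPM in 841CON, 506 and 476 in HCT116, 904 and 756 in HCT15 and 181 and 169 in SW620. HCT15 was highest and HCT116 next, without overlap, and the log2 changes were 2.0 (SE 0.37, adjusted p = 0.0002) in HCT15 and 1.24 (SE 0.36, adjusted p = 0.00572) in HCT116. The HCT116 footprint call of NDUFS8 was lost with close pairs summed, at a change of 1.34. Its TE change in HCT15 of 1.71 (SE 0.50, adjusted p = 0.0252) did not pass without 841CON INPUT replicate 1 (adjusted p = 0.0733), without either 841CON RPF library (0.0858 and 0.0852) or without replicate 2 of HCT15 INPUT (0.0792). NDUFS3 had INPUT levels of 34.9 and 19.3 CPM in 841CON, 80.02 and 74.7 in HCT116, 124 and 47.5 in HCT15 and 54.8 and 96.7 in SW620, and every cancer library lay above both 841CON libraries. The changes were 1.57 (SE 0.45, adjusted p = 0.00862) in HCT116, 1.73 (SE 0.44, adjusted p = 0.00509) in HCT15 and 1.55 (SE 0.45, adjusted p = 0.00877) in SW620, all against the same 841CON libraries. Without 841CON INPUT replicate 2 the adjusted p was 0.0639 in HCT15 and 0.0934 in SW620, and it was 0.0732 without replicate 1 of HCT15 INPUT and 0.135 without replicate 2 of SW620 INPUT.

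The accessory subunit NDUFA2 (ENSG00000131495) had the largest measured fall of footprints in HCT116. Its footprint levels were 217 and 193 CPM in 841CON, 8.90 and 10.7 in HCT116, 218 and 178 in HCT15 and 43.05 and 84.5 in SW620, while INPUT levels were 49.02 and 73.02 CPM in 841CON, 94.7 and 92.5 in HCT116, 59.4 and 45.6 in HCT15 and 88.7 and 42.2 in SW620. HCT116 footprints, 9 and 11 counts, were below those of every other line, although its INPUT levels were above those of the other parental lines. Footprints changed by -4.38 (SE 0.48, adjusted p = 5.54e-07) and TE by -4.98 (SE 0.61, adjusted p = 7.36e-06). NDUFA2 overlaps the protein-coding gene TMCO6 in RefSeq, and how reads in such overlaps were assigned is not given in the sources used here. NDUFA4 footprints were 708 and 625 CPM in 841CON, 54.4 and 53.4 in HCT116, 380.4 and 370.4 in HCT15 and 129 and 84.5 in SW620, highest in 841CON and lowest in HCT116 without overlap. The changes were -3.63 (SE 0.42, adjusted p = 1.22e-06) in HCT116 and -2.63 (SE 0.46, adjusted p = 0.000198) in SW620, and TE changed by -2.93 (SE 0.55, adjusted p = 0.000354) and -2.29 (SE 0.59, adjusted p = 0.0126).

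Other accessory subunits rose in RNA. NDUFB9 had INPUT levels of 46.2 and 48.9 CPM in 841CON, 251 and 233 in HCT116, 67.9 and 61.4 in HCT15 and 58.1 and 65.5 in SW620, so HCT116 was above all others, at 2.34 (SE 0.27, adjusted p = 3.95e-06). NDUFB9 footprints were 176 and 172 CPM in 841CON, 264 and 303 in HCT116, 317 and 322 in HCT15 and 51.7 and 52.8 in SW620. They were highest in HCT15 and lowest in SW620, and TE changed by -1.64 (SE 0.37, adjusted p = 0.00153) in HCT116 and -2.11 (SE 0.45, adjusted p = 0.00368) in SW620. NDUFB10 RNA rose by 2.25 (SE 0.49, adjusted p = 0.0012) in HCT116, from INPUT levels of 69.8 and 18.9 CPM in 841CON to 206 and 193 CPM in HCT116. NDUFA1, encoded on the X chromosome, had INPUT levels of 52.8 and 19.6 CPM in 841CON, 101 and 137 in HCT116, 44.3 and 19.1 in HCT15 and 142 and 149 in SW620. HCT116 and SW620 did not overlap 841CON, with changes of 1.79 (SE 0.47, adjusted p = 0.00488) and 2.08 (SE 0.47, adjusted p = 0.00158). The footprint levels were 193 and 193 CPM in 841CON, 216 and 169 in HCT116 and 138 and 52.8 in SW620, and their changes did not pass in either line. TE changed by -1.797 (SE 0.64, adjusted p = 0.0278) and -3.06 (SE 0.71, adjusted p = 0.00646).

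NDUFA9, NDUFB8 and NDUFV2 of complex I rest on few counts or on calls that single libraries decide. NDUFA9 RNA was called in HCT116 at 1.84 (SE 0.71, adjusted p = 0.0443) and in SW620 at 1.83 (SE 0.71, adjusted p = 0.0427), with INPUT levels of 6.60 and 12.3 CPM in 841CON, 38.01 and 32.6 in HCT116, 5.40 and 8.84 in HCT15 and 24.1 and 45.4 in SW620. The HCT116 call was lost when any 1 of the 4 libraries compared was left out, with adjusted p between 0.0588 and 0.129. The SW620 call was lost without 841CON INPUT replicate 1 (0.153) and without either SW620 INPUT library (0.0504 and 0.276). NDUFB8 footprints were 7.75 and 6.12 CPM in 841CON, 0.99 and 0.97 in HCT116, 46.2 and 16.4 in HCT15 and 25.8 and 31.7 in SW620, on 1 count in each HCT116 library and 3 in each SW620 library. Its rise in HCT15 of 2.14 (SE 0.80, adjusted p = 0.0325) had an adjusted p of 0.251 without replicate 1 of HCT15 RPF. NDUFV2, an iron-sulfur subunit of the NADH-binding arm, had INPUT counts of 0 to 28 per library, against 4 to 527 footprint counts. Its SW620 INPUT counts of 18 and 28, against 3 and 2 in 841CON, gave 4.29 (SE 0.88, adjusted p = 0.000716), and TE was not tested for it. RefSeq lists the antisense gene NDUFV2-AS1 over NDUFV2; in the vector and COPS7B libraries, reads counted as ambiguous between genes were 10.4% to 14.7% of uniquely aligned INPUT reads and 1.74% to 2.28% of footprint reads, and their part in the low INPUT counts was not tested.

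Complex III. CYC1 (ENSG00000179091), the cytochrome c1 that passes electrons to cytochrome c, had the largest rise of RNA in HCT116. INPUT levels were 79.2 and 38.7 CPM in 841CON, 645 and 644 in HCT116, 189 and 135 in HCT15 and 40.5 and 89.6 in SW620, and both HCT116 libraries stood above all others. The log2 change was 3.48 (SE 0.42, adjusted p = 5.75e-06) in HCT116 and 1.497 (SE 0.40, adjusted p = 0.00618) in HCT15, where without 841CON INPUT replicate 2 the adjusted p was 0.0768. Its footprints were 245 and 231 CPM in 841CON, 728 and 755 in HCT116, 629 and 424 in HCT15 and 51.7 and 95.03 in SW620, with HCT116 and HCT15 above 841CON and SW620 below it. They changed by 1.64 (SE 0.39, adjusted p = 0.0013) in HCT116, 1.14 (SE 0.38, adjusted p = 0.0185) in HCT15 and -1.73 (SE 0.49, adjusted p = 0.00953) in SW620. The HCT116 footprint call of CYC1 was lost with close pairs summed, at a change of 1.73. In HCT116 footprints rose less than RNA, and TE changed by -1.85 (SE 0.55, adjusted p = 0.0101). In SW620 TE changed by -1.92 (SE 0.64, adjusted p = 0.0416).

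The core proteins UQCRC1 and UQCRC2, which hold the complex together on its matrix side, did not move alike. UQCRC1 INPUT levels were 222 and 146 CPM in 841CON, 209 and 221 in HCT116, 148 and 124 in HCT15 and 86.5 and 101 in SW620 and its footprint levels 456 and 403 CPM in 841CON, 409 and 466 in HCT116, 324 and 364 in HCT15 and 146 and 127 in SW620. SW620 was lowest in both, at -0.96 (SE 0.28, adjusted p = 0.0101) for RNA and -1.65 (SE 0.32, adjusted p = 0.0006) for footprints, and the RNA call was lost with close pairs summed (adjusted p = 0.0589), without replicate 1 of 841CON INPUT (0.0577) and without replicate 1 of SW620 INPUT (0.0504). UQCRC2 INPUT levels were 38.7 and 129 CPM in 841CON, 103 and 100.4 in HCT116, 112 and 63.8 in HCT15 and 173 and 167 in SW620, with the 841CON replicates spanning HCT116 and HCT15. UQCRC2 footprints were 291 and 250.3 CPM in 841CON, 37.6 and 21.4 in HCT116, 164 and 252 in HCT15 and 129 and 106 in SW620. The HCT116 libraries, the lowest, changed by -3.199 (SE 0.46, adjusted p = 1.18e-05) in footprints and -3.44 (SE 0.62, adjusted p = 0.000232) in TE. UQCRC2 overlaps PDZD9 and a pseudogene in RefSeq. UQCRFS1 (ENSG00000169021), the Rieske iron-sulfur protein, was called in none of the comparisons with 841CON. Its INPUT levels were 20.7 and 70.9 CPM in 841CON, 81.4 and 86.6 in HCT116, 85.2 and 104 in HCT15 and 73.4 and 117 in SW620, lowest in 841CON replicate 1, and its footprint levels 115 and 90.3 CPM in 841CON, 80.1 and 63.1 in HCT116, 122 and 202 in HCT15 and 103 and 52.8 in SW620. UQCRB and UQCRH, small accessory subunits, were called in none of these comparisons either, the nearest being TE of UQCRB in SW620 at -2.73 (SE 0.94, adjusted p = 0.0501). UQCRQ, the ubiquinone-binding accessory subunit, had footprints of 553 and 531 CPM in 841CON, 739.7 and 767 in HCT116, 993 and 1108 in HCT15 and 198 and 137 in SW620. HCT15 was highest and SW620 lowest, with changes of 0.95 (SE 0.38, adjusted p = 0.0447) and -1.68 (SE 0.44, adjusted p = 0.00537).

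Complex IV. COX4I1 (ENSG00000131143), the regulatory subunit that binds ATP, had INPUT levels of 292 and 247 CPM in 841CON, 607 and 612 in HCT116, 200.3 and 230.4 in HCT15 and 111 and 103 in SW620. HCT116 was above and SW620 below the other lines without overlap, with changes of 1.18 (SE 0.27, adjusted p = 0.00173) and -1.33 (SE 0.27, adjusted p = 0.000645). Its footprints were 268 and 214 CPM in 841CON, 231 and 243 in HCT116, 459 and 424 in HCT15 and 51.7 and 73.9 in SW620. They were highest in HCT15, at 0.87 (SE 0.27, adjusted p = 0.0106), and lowest in SW620, at -1.96 (SE 0.35, adjusted p = 0.000242), while HCT116 lay within the range of 841CON. TE changed by -1.204 (SE 0.38, adjusted p = 0.0135) in HCT116 and by 1.19 (SE 0.37, adjusted p = 0.0343) in HCT15, and the HCT15 call was lost in 12 alternatives, with adjusted p = 0.0814 without replicate 1 of 841CON INPUT, 0.0678 and 0.151 without either 841CON RPF library, and 0.172 and 0.0548 without replicate 1 of HCT15 INPUT or of HCT15 RPF. COX5A, a matrix-facing subunit, had INPUT levels of 38.7 and 125 CPM in 841CON, 223 and 218 in HCT116, 94.4 and 126 in HCT15 and 136 and 159.7 in SW620 and footprint levels of 169 and 204 CPM in 841CON, 226 and 239.8 in HCT116, 387 and 492 in HCT15 and 129 and 201 in SW620. RNA was higher in HCT116 by 1.39 (SE 0.40, adjusted p = 0.00949) and footprints in HCT15 by 1.24 (SE 0.40, adjusted p = 0.0145).

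COX5B, which binds zinc, and COX7C, a small membrane subunit, both had higher footprints in HCT15. COX5B footprints were 209 and 212 CPM in 841CON, 348 and 301 in HCT116, 395 and 379 in HCT15 and 51.7 and 31.7 in SW620, and the SW620 libraries, with 6 and 3 counts, were below all others. The changes were 0.88 (SE 0.29, adjusted p = 0.0159) in HCT15 and -2.31 (SE 0.40, adjusted p = 0.000199) in SW620, where TE changed by -2.79 (SE 0.50, adjusted p = 0.00136). COX7C footprints were 102 and 94.9 CPM in 841CON, 115 and 98.05 in HCT116, 419.6 and 352 in HCT15 and 77.5 and 42.2 in SW620, highest in HCT15 at 1.97 (SE 0.35, adjusted p = 0.000164). In SW620 COX7C RNA was higher by 1.23 (SE 0.35, adjusted p = 0.0072) and TE lower by -1.92 (SE 0.57, adjusted p = 0.025), while its footprint change of -0.69 (SE 0.46, adjusted p = 0.245) did not pass. COX6B1, a subunit on the intermembrane side, had footprints of 267 and 249 CPM in 841CON, 47.5 and 62.1 in HCT116, 409.8 and 336 in HCT15 and 129 and 148 in SW620. HCT116 was lowest, although its INPUT levels of 279 and 291 CPM in HCT116 were above 142 and 172 CPM in 841CON, and changed by -2.23 (SE 0.38, adjusted p = 6.5e-05) in footprints and -3.09 (SE 0.52, adjusted p = 0.00014) in TE. COX7A2 footprints rose in HCT116, from 204 and 171 CPM in 841CON to 473 and 471 CPM in HCT116, by 1.33 (SE 0.30, adjusted p = 0.000951), with adjusted p = 0.0627 when close pairs were summed. COX8A, a small membrane subunit, was called in none of the comparisons with 841CON.

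COX6C and COX6A1, further membrane subunits, had lower TE in HCT116. COX6C footprints were 180.2 and 171 CPM in 841CON, 72.2 and 83.5 in HCT116, 297 and 168 in HCT15 and 68.9 and 42.2 in SW620, with HCT116 and SW620 below the other lines, and its INPUT levels were 72.6 and 103 CPM in 841CON, 165 and 176 in HCT116, 52.4 and 105 in HCT15 and 101 and 193 in SW620. Its footprints changed by -1.17 (SE 0.39, adjusted p = 0.014) in HCT116 and -1.64 (SE 0.50, adjusted p = 0.0151) in SW620, and its TE by -2.12 (SE 0.55, adjusted p = 0.00401) and -2.37 (SE 0.63, adjusted p = 0.0149). COX6A1, whose upstream bases are printed above, had INPUT levels of 25.5 and 31.00 CPM in 841CON, 70.02 and 77.2 in HCT116, 13.04 and 46.5 in HCT15 and 32.9 and 79.8 in SW620 and footprint levels of 71.2 and 70.4 CPM in 841CON, 57.4 and 19.4 in HCT116, 126 and 78.97 in HCT15 and 51.7 and 21.1 in SW620. Its HCT116 footprints lay below both 841CON libraries while its INPUT lay above them, but neither change passed on its own, and TE changed by -2.25 (SE 0.83, adjusted p = 0.0331).

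ATP synthase. The catalytic head is formed by ATP5F1A (alpha, ENSG00000152234) and ATP5F1B (beta), with ATP5F1C and ATP5F1D in the central stalk. ATP5F1A INPUT levels were 339 and 392 CPM in 841CON, 423 and 400.2 in HCT116, 611 and 563 in HCT15 and 133 and 202 in SW620, and its footprint levels 1161 and 1020.4 CPM in 841CON, 1083 and 1011 in HCT116, 974 and 1499 in HCT15 and 138 and 201 in SW620. SW620 was lowest in both, with changes of -1.12 (SE 0.30, adjusted p = 0.00493) in RNA, -2.699 (SE 0.34, adjusted p = 7.77e-06) in footprints and -1.58 (SE 0.45, adjusted p = 0.0204) in TE. Without replicate 1 of SW620 INPUT the RNA change had an adjusted p of 0.0563. ATP5F1B INPUT levels were 402 and 395 CPM in 841CON, 1109.7 and 1095 in HCT116, 494 and 796 in HCT15 and 429 and 1025 in SW620. HCT116 was above 841CON and HCT15, at 1.47 (SE 0.36, adjusted p = 0.0033). ATP5F1B footprints were 1398 and 1338 CPM in 841CON, 2462 and 2329 in HCT116, 1549.7 and 2060.5 in HCT15 and 473 and 559.6 in SW620, again highest in HCT116 and lowest in SW620. Its SW620 changes were -1.41 (SE 0.38, adjusted p = 0.00661) for footprints and -2.28 (SE 0.52, adjusted p = 0.00605) for TE. ATP5F1D footprints rose in HCT15 by 1.43 (SE 0.45, adjusted p = 0.0134). ATP5F1C footprints were 345 and 302 CPM in 841CON, 223 and 248 in HCT116, 201 and 256 in HCT15 and 155 and 106 in SW620, lowest in SW620, where they changed by -1.299 (SE 0.35, adjusted p = 0.00676) and TE by -1.36 (SE 0.46, adjusted p = 0.0465).

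The peripheral stalk, which keeps the head from turning, was measured through ATP5PB, ATP5PD and ATP5PO. ATP5PB, its b subunit, had footprints of 259.5 and 251 CPM in 841CON, 302 and 245 in HCT116, 427 and 272 in HCT15 and 51.7 and 95.03 in SW620. SW620 was below all other lines, at -1.83 (SE 0.55, adjusted p = 0.0131), and its TE change of -1.805 (SE 0.70, adjusted p = 0.0773) did not pass. ATP5PD, its d subunit, had footprints of 182 and 162 CPM in 841CON, 241 and 233 in HCT116, 166 and 155 in HCT15 and 25.8 and 10.6 in SW620. SW620, with 3 and 1 counts, was lowest, at -3.19 (SE 0.50, adjusted p = 7.79e-05) for footprints and -3.21 (SE 0.61, adjusted p = 0.00202) for TE, while its INPUT levels of 85.4 and 93.5 CPM in SW620 lay between the 2 values of 58.5 and 116 CPM in 841CON. ATP5PO (ENSG00000241837), the subunit that confers oligomycin sensitivity, had 0 footprint counts in both HCT116 libraries, against 83 and 40 in 841CON. Its INPUT levels were 8.48 and 77.9 CPM in 841CON, 25.3 and 27.2 in HCT116, 20.01 and 36.3 in HCT15 and 83.3 and 108 in SW620 and did not set HCT116 apart. Against a floor of 3 counts over the 2 HCT116 libraries together, ATP5PO footprints were at least 20.8-fold lower than in 841CON, with adjusted p = 0.000674 by edgeR. TE was called lower (adjusted p = 0.00941), but no fold is given for it, since the 841CON INPUT counts were 9 and 445. With close pairs summed the TE call had adjusted p = 0.0605. In SW620 the footprint counts of ATP5PO were 16 and 0, so its replicates did not agree. ATP5MC1, which encodes the c subunit of the membrane ring, had INPUT levels of 49.97 and 57.8 CPM in 841CON, 169 and 157 in HCT116, 188 and 105 in HCT15 and 50.4 and 85.7 in SW620. HCT116 and HCT15 lay above 841CON, with changes of 1.59 (SE 0.36, adjusted p = 0.00177) and 1.44 (SE 0.36, adjusted p = 0.00419). Footprints of ATP5MC1 were 161 and 139 CPM in 841CON, 154 and 139 in HCT116, 212 and 255 in HCT15 and 43.05 and 42.2 in SW620, lowest in SW620, and TE changed by -1.63 (SE 0.50, adjusted p = 0.0129) in HCT116 and -2.15 (SE 0.62, adjusted p = 0.0215) in SW620.

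**Figure D4:**
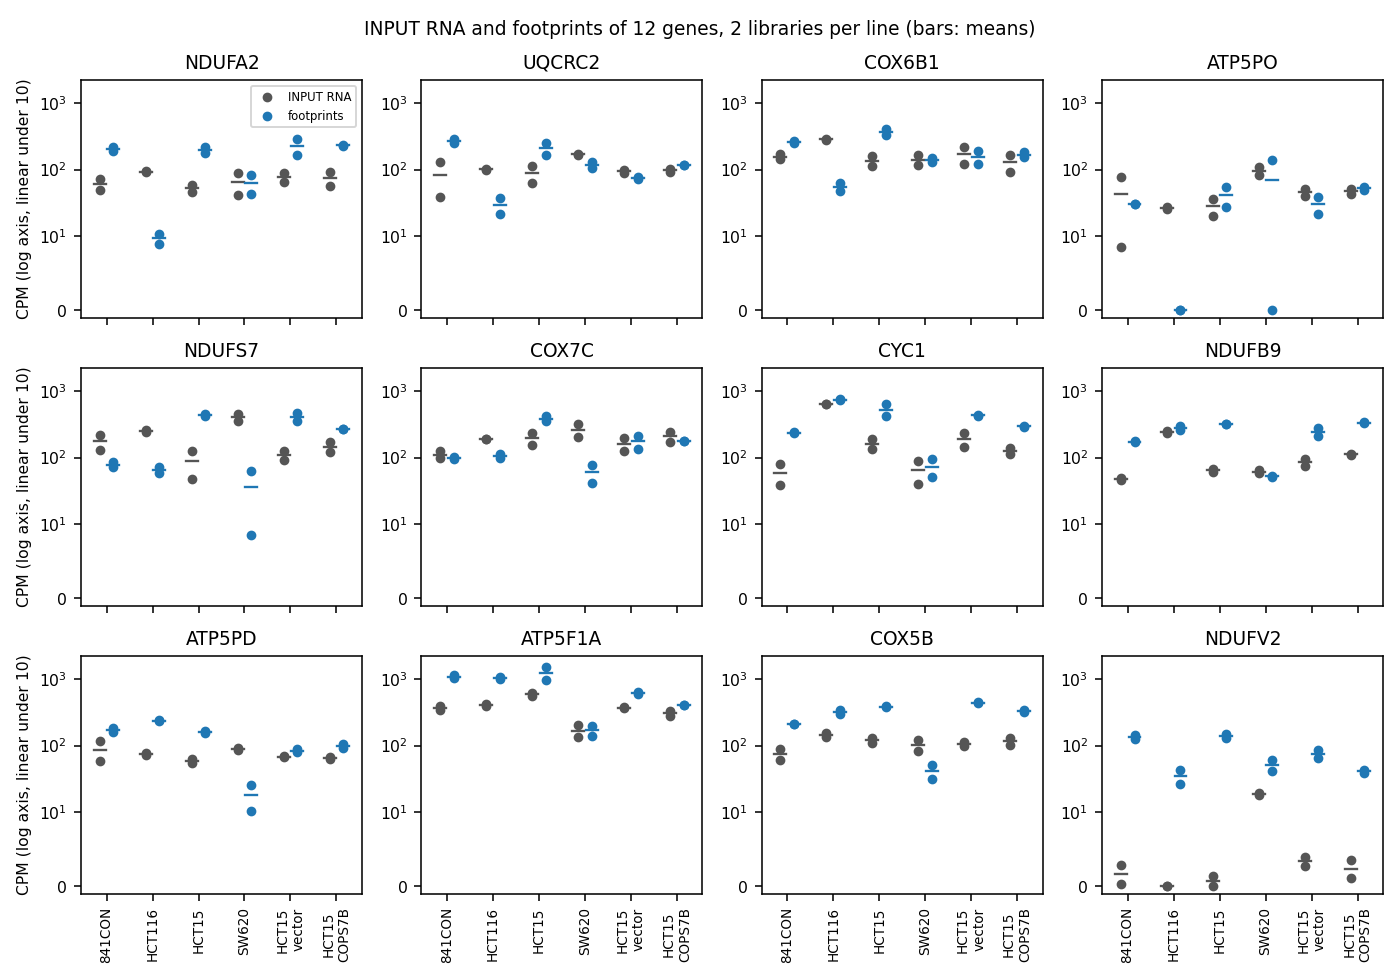
INPUT RNA (grey) and footprint (blue) levels in CPM of 12 genes in the 6 lines, each point 1 library and each bar the mean of 2, on an axis that is logarithmic above 10 and linear below. NDUFA2, UQCRC2, COX6B1 and ATP5PO have low footprints in HCT116 at INPUT levels that are not below the range of the other lines, and NDUFS7 has high footprints in HCT15 and the lines made from it.

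The 3 cancer lines were also compared with one another, which uses no 841CON library. TE differed among HCT116, HCT15 and SW620 for 28 of 37 genes (75.7%) by edgeR's F test at an adjusted p under 0.05, against 52.7% of all genes. These were 10 of 13 genes of complex I, 4 of 7 of complex III, 8 of 9 of complex IV and 6 of 8 of ATP synthase. The largest fitted differences were those of ATP5PO, NDUFS7, NDUFB8 and NDUFA2. The smallest adjusted p values were those of NDUFS7 (1.94e-05), NDUFA2 (2.03e-05) and COX6B1 (7.06e-05). TE in HCT116 minus HCT15 was -4.24 for NDUFS7, -5.16 for NDUFA2 and -3.83 for COX6B1 on the log2 scale, and in SW620 minus HCT15 it was -5.88, -1.96 and -1.48. Summing the close pairs gave 12 such genes for TE. RNA differed among the 3 lines for 18 of 38 genes (47.4%), against 46% of all genes. The largest fitted differences were those of NDUFV2 (on 0 counts in both HCT116 INPUT libraries), CYC1, COX4I1 and NDUFA9, and the smallest adjusted p values those of COX4I1 (adjusted p = 5.22e-06), NDUFB9 (1.06e-05) and CYC1 (1.75e-05). The RNA count was 10 with close pairs summed. In the fit of all libraries the RNA share is near that of all genes, and the TE share is above it. Neither share was set against genes of like abundance for these tests.

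In the COPS7B line no gene of the group passed the threshold against the vector line in the fit of all libraries, and a few did under alternatives. edgeR's quasi-likelihood test called 0 of 38 for RNA (17.5% of all genes), 0 of 38 for footprints (17.3%) and 0 of 37 for TE (0%), with 3, 6 and 0 genes at an unadjusted p under 0.05. Those genes, named after their values were seen, were NDUFA1, NDUFB10 and ATP5F1C for RNA, and these 3 with ATP5F1D, NDUFS8 and UQCRB for footprints. DESeq2 called 1 gene for RNA (ATP5F1C), 3 for footprints (ATP5F1C, NDUFA1 and NDUFB9) and 0 for TE. A fit of the compared libraries alone called 2 genes for RNA and 6 for footprints, and without trimmed-mean scaling 3 were called for footprints. Over all genes the fit of the compared libraries called 4189 of 11830 for RNA and 4106 of 11948 for footprints. Without replicate 1 of 841CON INPUT, which is not among the libraries compared but enters the same fit, 3 genes were called for RNA and 5 for footprints, and without its replicate 2 there were 1 and 5. The footprint count was 1 without either RPF library of HCT15 or of SW620 or without replicate 1 of vector RPF, and 2 without its replicate 2. The smallest adjusted p was 0.115 for RNA, 0.0564 for footprints and 1.00 for TE. Median log2 changes were 0.09, 0.07 and -0.0034, against 0.08, 0.05 and -0.03 over all genes, with a median SE of 0.39, 0.38 and 0.54 per gene. Changes ran from -0.68 for NDUFV2 to 1.09 for NDUFB10 in RNA, from -1.10 for ATP5F1D to 1.28 for UQCRB in footprints, and from -1.02 for NDUFS7 to 1.26 for UQCRB in TE. With SEs of this size the comparison does not show that levels were equal.

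Core subunits in the vector and COPS7B lines spread by replicate. CYC1 footprints were 423 and 440.5 CPM in the vector line and 293 and 298 in the COPS7B line and its INPUT levels 146 and 234 CPM in the vector line and 138 and 112 in the COPS7B line. Footprint levels of ATP5F1A were 592 and 642 CPM in the vector line and 401 and 415 in the COPS7B line and those of ATP5F1B 1234 and 1196 CPM in the vector line and 1199 and 1175 in the COPS7B line. The vector libraries overlapped the COPS7B libraries for ATP5F1B and lay above them for CYC1 and ATP5F1A. NDUFS1 footprints were 25.9 and 80.4 CPM in the vector line and 69.9 and 74.5 in the COPS7B line, those of NDUFV1 381 and 239 CPM in the vector line and 265 and 265 in the COPS7B line and those of UQCRC1 379 and 297 CPM in the vector line and 313 and 336 in the COPS7B line. In each of these the vector replicates spanned the COPS7B libraries. UQCRFS1 footprints were 71.3 and 113 CPM in the vector line and 47.7 and 53.8 in the COPS7B line, COX4I1 footprints 416 and 348 CPM in the vector line and 350.0 and 349 in the COPS7B line, COX5A footprints 283 and 245 CPM in the vector line and 249 and 258 in the COPS7B line and ATP5MC1 footprints 119.9 and 168 CPM in the vector line and 175 and 175 in the COPS7B line. The COPS7B replicates lay close together in all of these. INPUT levels of ATP5F1A were 362 and 385 CPM in the vector line and 276 and 336 in the COPS7B line. Those of ATP5F1B were 477 and 719.9 CPM in the vector line and 614 and 703 in the COPS7B line. Over the 38 genes, COPS7B replicates differed by a median of 1.27-fold in INPUT and 1.04-fold in footprints. Vector replicates differed by 1.32-fold in INPUT and 1.35-fold in footprints. The map of genes by library shows the INPUT levels of the other core subunits.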

How the data were processed

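The 24 libraries are 6 human colon lines, each with 2 INPUT and 2 RPF libraries. The authors deposited whole-number read counts per Ensembl gene. Listed in the submitters' processing notes, without roles or settings, are GRCh38 as the build and the tools HTSeq 2.0.2, STAR 2.7.9 and cutadapt 3.5. Not given in the sources used here are the annotation release, the strand setting and the treatment of reads with several matches. The 38 genes and all lists were chosen with earlier results of these data known.

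From the counts, the 20426 genes shared by all tables were used; 40197 genes only in INPUT tables and the summary lines of 8 tables were left out. One fit by edgeR 4.0.16 (quasi-likelihood, R 4.3.3) covered all libraries, with trimmed-mean (TMM) scaling within each assay and genes passing edgeR's filter at a minimum count of 10 in each assay, which left 11938 genes, all 38 among them, and 12 residual degrees of freedom. TE was the footprint change minus the RNA change, tested as an interaction for genes with a mean INPUT of at least 10 counts in each line compared, which left out NDUFV2. Log2 changes carry an SE, derived as the absolute fitted change over the square root of the quasi-likelihood F statistic. The p-values were adjusted by Benjamini-Hochberg over all genes tested, with a threshold of 0.05. The script was tested on simulated data.

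Levels in every library were given for 10 core subunits, and up to 4 called genes with the largest change per direction were named in each comparison; other genes were described by their role after values were seen. Alternatives were other scalings, DESeq2 1.42.0, other filters, fits of the compared libraries alone, summed close pairs, a replicate block and each library left out. Same-numbered libraries did not deviate together: r ran from -0.117 to 0.223 between INPUT and RPF of a line, and over 0.1 in 1 of 6 lines. Totals per library ran from 84262 to 9105954 counts. The other subunits, assembly factors, mitochondrially encoded subunits and cell type markers were not analysed here, since no table paired the other Ensembl identifiers with symbols. One of the 38 genes is not reported here by name and is not drawn in the gene plots, but is part of all counts, shares and medians.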

Additional observations from a re-analysis of the deposited data

Results flagged for a closer look

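Differences among HCT116, HCT15 and SW620, tested with edgeR's F test and Benjamini-Hochberg adjustment, are given here for the genes with the largest fitted differences, as log2 values of HCT116 minus HCT15 and of SW620 minus HCT15. For RNA, NDUFV2 differed with adjusted p = 6.3e-05, on INPUT counts of 0 and 0 in HCT116, 0 and 3 in HCT15 and 18 and 28 in SW620, so that its fitted values depend on the prior count, are no bound and are not given. CYC1 differed with 1.75e-05 (1.99 and -1.30), COX4I1 with 5.22e-06 (1.501 and -1.01) and NDUFA9 with 0.0237 (2.32 and 2.31). The NDUFA9 difference had adjusted p = 0.183 with close pairs summed, and 0.0747, 0.0641, 0.2 and 0.0507 without HCT116 INPUT replicate 1 or 2, HCT15 INPUT replicate 1 or SW620 INPUT replicate 2.

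For TE, NDUFS7 differed with adjusted p = 1.94e-05 (-4.24 and -5.88), NDUFA2 with 2.03e-05 (-5.16 and -1.96) and NDUFB8 with 0.00726 (-4.82 and 0.39, on 1 footprint count in each HCT116 library). ATP5PO differed with 0.00701, on 0 footprint counts in both HCT116 libraries, so its fitted value depends on the prior count, is no bound and is not given. With close pairs summed the adjusted p was 0.0661 for ATP5PO and 0.126 for NDUFB8.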

How the results depend on the processing

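Of 638 alternative values of the named results, 558 kept their side of the threshold and 80 lost the call. Of these 80, 37 lost it with 1 library left out, 20 in fits of the compared libraries alone and 16 with close pairs summed. No named change in a single cancer line changed sign. The named differences among cancer lines carry no direction, so a change of sign was not tested for them. Counts of called genes moved more, and unless stated the cause was not tested. With close pairs summed, calls over all genes fell too wherever those of the group fell. With close pairs summed (fewer libraries), HCT116 had 8 RNA, 5 footprint and 4 TE calls, HCT15 3 footprint and 0 TE calls, SW620 3 TE calls, and the differences among cancer lines 10 RNA and 12 TE calls. In fits of the compared libraries alone, HCT116 had 6 RNA and 26 footprint calls (13 higher, 13 lower). HCT15 had 0 RNA and 0 TE, SW620 0 RNA and 0 TE, and COPS7B 2 RNA and 6 footprint calls. Over all genes these fits called 8414 of 9563 for HCT116 footprints, and 0 for HCT15 RNA and TE. Where INPUT and RPF each had to average 50 counts or more, which leaves fewer genes to test and 1 of the 38 in comparisons with SW620, HCT116 had 7 footprint and 7 TE calls, HCT15 1 TE call, SW620 1 each for RNA, footprints and TE, and the differences among cancer lines 0 RNA and 1 TE calls. Without trimmed-mean scaling HCT15 had 10 RNA calls, SW620 16 RNA, 9 footprint and 10 TE calls, and COPS7B 3 footprint calls. With trimmed-mean scaling over all 24 libraries together HCT15 had 6 RNA calls. DESeq2 gave 8 RNA calls in HCT15 and 1 RNA and 3 footprint calls for COPS7B. The replicate block gave 1 TE call in HCT15 and moved no other count by over 1.5 times. Same-numbered libraries share only a number.

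With 1 library of the groups compared left out, HCT116 counts ran from 12 to 15 for RNA, 8 to 10 for footprints and 9 to 15 for TE. HCT15 ran from 4 to 11, 4 to 10 and 1 to 6, SW620 from 5 to 17, 11 to 17 and 8 to 20, COPS7B from 0 to 0, 0 to 2 and 0 to 0, and the differences among cancer lines from 13 to 18 for RNA and 21 to 28 for TE. Leaving out any 1 of all 24 libraries, which enter 1 fit, widened these to 12 to 19 and 8 to 17 for HCT116 RNA and footprints, 3 to 11 and 4 to 16 for HCT15, 11 to 19 for SW620 footprints, 0 to 3 and 0 to 5 for COPS7B, and 13 to 23 for RNA and 21 to 29 for TE among cancer lines, with the other ranges as given. Where this leaves a group with 1 library, that library is assumed to vary like the other groups. Without trimmed-mean scaling the median change over all genes moved from -0.25 to 0 for HCT116 footprints, from -0.02 to 0.25 for HCT15 RNA, from 0.27 to 0.50 for HCT15 footprints and from 0.03 to 0.27 for SW620 RNA. Depth limits SW620 footprints most, and reads that could also match pseudogenes or overlapping genes (named pseudogenes for 25 of the 38 genes) make single-gene levels uncertain.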
